A study of Bos indicus x Bos taurus with 45 samples.

Results

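The miR-99, miR-100 and miR-125 family was followed through 4 fetal cattle tissues by small RNA sequencing. Members were the rows of the 4 deposited count tables named miR-99a, miR-99b, miR-100, miR-125a or miR-125b, on either arm of the hairpin precursor, with the tables' names bta-miR-99a-5p, bta-miR-99b, bta-miR-100, bta-miR-125a and bta-miR-125b for the abundant arms (bta, for Bos taurus, is left out from here on). The rule found 11 of the 603 miRNA names that occur over the 4 tables. It found 10 of 436 rows in kidney, 11 of 563 in liver, 10 of 439 in skeletal muscle and 11 of 460 in tongue. The row that is listed in the liver and tongue tables alone was miR-100-3p. Every listed member passed the filter on low counts. The family was chosen by measured values of these same libraries: the log2 differences of miR-100 in kidney and miR-125b in muscle between overgrown and control fetuses were known to be among the leading ones. The kidney and muscle comparisons of LOS and control fetuses are therefore described by their values, with no p-value for a member.

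A miRNA guides the silencing complex to target messenger RNAs by its seed, a short stretch near its 5′ end. miR-99a, miR-99b and miR-100 share a seed and differ in few other bases, and they are best known as repressors of the growth regulators MTOR and IGF1R. miR-125a and miR-125b share another seed and are the vertebrate relatives of lin-4, the worm miRNA that times larval development. They are known to repress LIN28, the protein that blocks let-7 maturation. The family is made from 3 clusters that each also hold a let-7 miRNA: miR-100 with let-7a and miR-125b, miR-99a with let-7c and miR-125b, and miR-99b with let-7e and miR-125a. Each hairpin gives 2 strands. The abundant one, here called the guide, is miR-99a-5p, miR-99b, miR-100, miR-125a or miR-125b, and the others are the 3p strands. Mature miR-125b can come from both of its precursors, and the tables list its precursor as mixed, whereas miR-125b-1-3p and miR-125b-2-3p belong to 1 precursor each. Because the miR-99 and miR-100 guides are so alike, reads may be divided among them in a way that depends on the authors' counting. Sequences and genome positions of the members were not analysed here.

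The fetuses were Bos indicus x Bos taurus crosses at about day 105 of gestation. Control fetuses came from artificial insemination. ART fetuses came from assisted reproduction and were healthy, and LOS fetuses also came from assisted reproduction and had large offspring syndrome, an overgrowth condition of ruminants. There were 4 control and 4 LOS libraries of kidney, 4 and 4 of skeletal muscle, 9 and 7 of tongue, and 5 control, 4 LOS and 4 ART libraries of liver, 45 in all. Libraries of different tissues that carry 1 group and number are taken here as 1 fetus, as the labels number them. Sex is labelled in tongue alone, where control 1 to 5 and LOS 1 to 4 were female and the higher numbers male. Totals of listed reads ran from 3379816 to 4976770 per library in liver, from 4744968 to 6456252 in muscle, from 6132982 to 9170756 in kidney and from 9357833 to 13822348 in tongue. Levels are given as CPM, the count of a miRNA scaled to the TMM-adjusted total of its library. A difference is a log2 ratio of fitted means, followed by its standard error (SE). The liver and muscle labels were checked by marker miRNAs. The summed hepatocyte markers reached at least 15132 CPM in liver and at most 30.2 CPM in kidney and muscle, and the summed skeletal muscle markers reached at least 16025 CPM in muscle and tongue and at most 209 CPM in kidney and liver. The kidney label was not marked out by its own list: the kidney and gut epithelium markers summed to 20509 to 25118 CPM in kidney (3 listed) and to 60902 to 82342 CPM in liver (4 listed), against at most 1455 CPM in muscle and 8403 CPM in tongue (3 listed in each). All these marker sums were scaled within the table of each tissue, so the size of a difference between tissues cannot be read from them.

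In control fetuses, the 5 guides together made up 3.46% ± 0.72 (SD, n = 9) of the listed reads in tongue, 2.10% ± 0.25 (n = 4) in muscle, 1.98% ± 0.14 (n = 4) in kidney and 1.72% ± 0.20 (n = 5) in liver. The order of the tissue means differed among the guides, although miR-99a-5p and miR-125b had the same one. To compare the tissues, the control libraries were scaled together over the 374 miRNAs that the 4 tables share and tested with edgeR. The fit had no term for sex or for the fetus. Several control fetuses gave libraries to more than 1 tissue, so the p-values treat libraries of 1 fetus as independent. The fetus number as a block was an alternative. The tongue controls included males, whereas the other tissues held only control numbers that were female in tongue. miR-100 averaged 11043 ± 3026 CPM (SD, n = 9) in tongue, 6748 ± 712 in muscle, 3970 ± 787 in liver and 3490 ± 532 in kidney. Tongue exceeded muscle (log2 difference 0.71, SE 0.19, adjusted p = 0.00202), although the libraries overlapped. Of the tongues, only the males control 7 and control 9 (6995 and 6734 CPM) lay below the highest muscle library (7453 CPM). Muscle exceeded liver (0.77, SE 0.20, adjusted p = 0.00123), whereas liver and kidney did not differ beyond their spread (0.19, SE 0.20, adjusted p = 0.387). Without the tongue table miR-100 passed as higher in liver than in kidney (0.34, adjusted p = 0.0205), as it did without scaling factors (1.28, adjusted p = 3.64e-06). miR-99a-5p, which shares the miR-100 seed, was lowest in liver at 382 ± 50.4 CPM. It averaged 1597 ± 235 CPM in kidney, 2210 ± 242 in muscle and 2740 ± 795 in tongue, a log2 difference of 2.07 (SE 0.20, adjusted p = 1.33e-09) between kidney and liver. The third of these guides, miR-99b, was instead highest in kidney: 12634 ± 1430 CPM in kidney, 9945 ± 1514 in muscle, 8518 ± 1545 in tongue and 3960 ± 333 in liver. The kidney libraries of miR-99b, at 11291 to 14383 CPM, overlapped those of muscle, at 8245 to 11633 CPM. In bulk tissue, fewer cells of a type and less of a miRNA per cell cannot be told apart.

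The miR-125 guides also differed from each other by tissue. miR-125a averaged 5280 ± 354 CPM (SD, n = 4) in kidney, 4903 ± 753 (n = 9) in tongue, 3864 ± 470 (n = 4) in muscle and 2026 ± 100.1 (n = 5) in liver. Kidney and tongue did not differ beyond their spread (adjusted p = 0.333), tongue exceeded muscle (adjusted p = 0.00547) and muscle exceeded liver (adjusted p = 6.40e-08). miR-125b was highest in tongue, at 7601 ± 1374 CPM, against 4453 ± 442 in muscle, 4220 ± 536 in kidney and 941 ± 136 in liver. Its tongue libraries (5371 to 9492 CPM) lay above every muscle library (3885 to 4919 CPM), a log2 difference of 0.77 (SE 0.13, adjusted p = 2.35e-05), and muscle and kidney did not differ beyond their spread (adjusted p = 0.639). The liver libraries of miR-125b, at 802 to 1120 CPM, were the lowest, a log2 difference of 2.16 (SE 0.15, adjusted p = 2.15e-12) below kidney. The relatives miR-10a and miR-10b, which resemble miR-100 in sequence but lie in the HOX clusters, were spread far more widely: miR-10b averaged 389809 CPM in kidney and 473 CPM in liver.

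**Figure D1:**
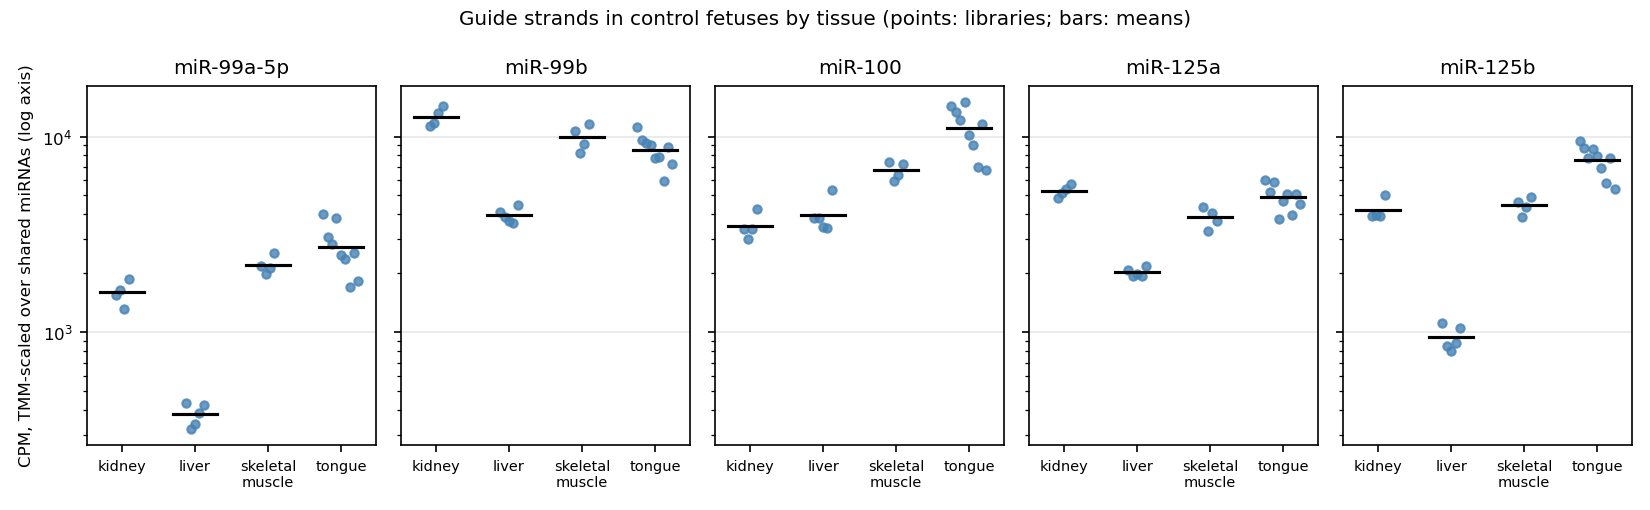
CPM of the 5 guide strands (log axis) in control libraries of kidney (4), liver (5), skeletal muscle (4) and tongue (9), scaled over the 374 shared miRNAs. Points are libraries and bars are means; miR-99b is highest in kidney (mean 12634 CPM) and miR-100 and miR-125b in tongue (means 11043 and 7601 CPM).

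Between tissues most miRNAs differ, so the share of members called has to be read against that background. Of the 10 members in the shared set, edgeR called 9 between liver and kidney, all lower in liver, where 84.5% of the 374 miRNAs were called and 44.4% were called lower. All 10 were called higher in muscle than in liver (86.1% of all miRNAs were called, 46.5% higher) and all 10 higher in tongue than in liver (89% called, 47.1% higher). The last call of miR-99b-3p (0.31, adjusted p = 0.00388) was lost with RLE factors (0.19, adjusted p = 0.0603) and in DESeq2 (0.19, adjusted p = 0.0749). Between muscle and kidney 7 were called, 4 higher in muscle and 3 lower (76.7% of all called, 40.9% higher and 35.8% lower). Between tongue and kidney 8 were called, 4 in each direction (80.7% of all called, 43.6% higher and 37.2% lower), and between tongue and muscle 5 were called, 4 of them higher in tongue (70.6% of all called, 36.6% higher). With the fetus number as a block, 6 were called between tongue and muscle, the added one being miR-99a-5p, whose log2 difference went from 0.31 (adjusted p = 0.124) to 0.56 (adjusted p = 0.000535). The calls that placed miR-99a-5p higher in muscle than in kidney (0.47, SE 0.21, adjusted p = 0.0434) and miR-99b lower (−0.35, SE 0.15, adjusted p = 0.0369) were the least secure. That of miR-99a-5p was lost without kidney control 1, 2 or 3 (0.46, 0.49 and 0.39) or muscle control 1, 3 or 4 (0.48, 0.49 and 0.39), and that of miR-99b without kidney control 3 or 4 (−0.32 and −0.28), muscle control 2 or 3 (−0.27 and −0.31) or tongue control 2 (−0.25). The scaling bears on these orders: without TMM factors, which ran from 0.695 to 1.61, the median of all miRNAs moved to 1.08 for liver against kidney and to −0.82 for muscle against liver. Of all miRNAs called, the percentage that was higher then moved from 47.5 to 72.9 in liver against kidney, from 54.0 to 31.1 in muscle against liver, from 54.0 to 71.6 in tongue against kidney, from 52.9 to 35.4 in tongue against liver and from 51.9 to 74.7 in tongue against muscle. Under that setting miR-100 and miR-125a were no longer higher in muscle than in liver (−0.25 and −0.087), and miR-125a was higher in tongue than in kidney (0.35). Each tissue has its own separately made table, so a tissue and its table cannot be told apart in any of these comparisons. For the tongue table, cutadapt was also named for it alone, so the tongue as a tissue and its processing cannot be told apart.

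The 3p strands were far rarer than the guides, with one exception. In control fetuses miR-125b-2-3p averaged 848 ± 76.1 CPM (SD, n = 4) in muscle, 647 ± 70.0 (n = 4) in kidney, 353 ± 49.6 (n = 9) in tongue and 160 ± 13.2 (n = 5) in liver. miR-125b-1-3p, from the other precursor, was highest in tongue (156 ± 15.3 CPM), followed by muscle (107 ± 10.1), kidney (69.5 ± 3.07) and liver (16.8 ± 2.26). Neighbouring tissues in both orders had no overlapping libraries and were called, with adjusted p from 1.86e-14 to 0.00486. The 3p strands of the 2 miR-125b precursors thus differed in the place of tongue, while both ranked muscle above kidney and kidney above liver. Tongue as a tissue and its separately made table cannot be told apart. Among the rest, miR-99a-3p did not differ beyond its spread between muscle, kidney and tongue (82.4 to 94.2 CPM) and was lowest in liver (16.6 CPM). miR-99b-3p was highest in kidney (36.6 CPM) and lowest in liver (14.4 CPM), and miR-125a-3p ran from 6.52 CPM in liver to 14.9 CPM in kidney. miR-100-3p was the rarest, at 2.83 to 6.41 CPM in control liver and 5.60 to 8.72 CPM in control tongue, and reads of miR-100 outnumbered its own by 929.5 to 1829 times and by 827 to 2546 times there.

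The ratio of strands within a library does not depend on the scaling between libraries. Reads of miR-125b-2-3p outnumbered those of miR-125b-1-3p by 8.25 to 10.96 times in the control kidneys, by 8.62 to 11.1 in liver and by 6.89 to 9.01 in muscle, but by 1.84 to 2.80 in tongue. All 9 tongue libraries lay below every library of the other tissues. The log2 ratio in tongue was lower by 2.04 than in kidney, by 2.08 than in liver and by 1.81 than in muscle (two-sided exact permutation test, p = 0.0014, 0.0005 and 0.0014, the smallest these group sizes allow; 0.0030, 0.0025 and 0.0030 after adjustment over 15 ratio tests). Control fetuses 1 to 4 (1 to 5 for liver) gave libraries to both sides of these tests, which treat all libraries as independent. The ratio tests were also added after seeing the data, so their p-values describe a separation that was already known. In the same libraries, miR-125b guide reads outnumbered the sum of its 3p strands by 9.41 to 19.7 times in tongue, against 5.09 to 6.53 in kidney, 4.35 to 6.21 in liver and 4.10 to 5.58 in muscle. The log2 differences from tongue were 1.33, 1.48 and 1.67, with the same exact p-values. Other hairpins mostly had higher guide to 3p ratios in tongue too. Against kidney, liver and muscle, miR-99a differed by 0.83, 0.47 and 0.46 and miR-99b by 0.45, 0.77 and −0.078. For miR-125a the differences were 0.40, 0.57 and 0.55. The adjusted exact p was under 0.05 except for miR-99a against liver and muscle (0.0513 and 0.0824) and miR-99b against muscle (0.678). The ratio of let-7e to its 3p strand averaged 153 in control tongue, 69.2 in kidney, 72.8 in liver and 71.9 in muscle. The 7 LOS tongues (1.98 to 2.85 for the ratio of the 3p strands) spanned about the range of the control tongues. Every tongue library belongs to the separately made table, so tissue and processing cannot be told apart here either.

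**Figure D2:**
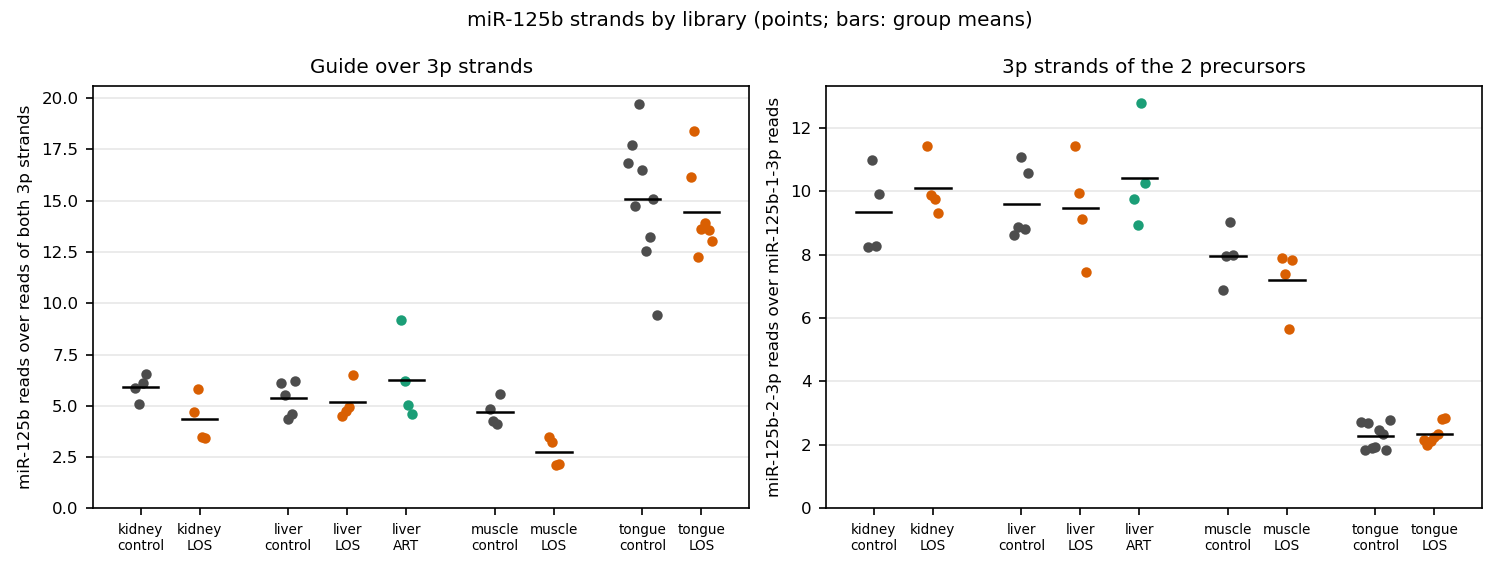
Ratios of miR-125b strands by library, tissue and group (control, LOS, ART); bars are group means. Left, reads of the guide over the summed 3p strands; right, miR-125b-2-3p over miR-125b-1-3p, where the control tongues lie at 1.84 to 2.80 and the other control tissues at 6.89 or above.

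In kidney, the mean of each of the 5 guides was lower in LOS than in control fetuses, as were 48.4% of all 436 miRNAs, while the 3p strands showed no common direction. miR-100 stood at 1598, 2182, 1300 and 1302 CPM in LOS 1 to 4 and at 2529, 2248, 2418 and 2995 CPM in control 1 to 4. The groups did not overlap, and 2.29% of the kidney miRNAs were lower in LOS without overlap; the log2 difference was −0.68 (SE 0.17). miR-125b was at 2143, 2912, 1974 and 2055 CPM in LOS and at 2952, 2988, 2844 and 3547 CPM in control fetuses, a difference of −0.44 (SE 0.13). LOS 2 alone reached into the control range of miR-125b. miR-99a-5p was at 821, 1020, 772 and 893 CPM in LOS and 1163, 1240, 945 and 1325 CPM in control fetuses (−0.41, SE 0.12). For miR-99b, LOS 2 was at 13314 CPM, above every control library (8451 to 10156 CPM), and the other LOS libraries were at 7898, 5373 and 5786 CPM, below every control. The difference of miR-99b was −0.19 (SE 0.25) over all libraries, −0.54 without LOS 2 and −0.036 without LOS 3. miR-125a was at 2966 to 4104 CPM in LOS and 3652 to 4038 CPM in control fetuses (−0.19, SE 0.10), and LOS 2 was again the highest.

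Across the kidney comparison, the 5 guides had a median log2 difference of −0.41 and the 5 listed 3p strands one of 0.02, from −0.14 for miR-99a-3p to 0.19 for miR-125a-3p, beside a median of 0.01 over all 436 miRNAs. The 3p strands were above 0 in 3 cases and below in 2. edgeR called 0 of the 436 (0%), with 33 of the 436 at an unadjusted p under 0.05, DESeq2 called 3 and limma-voom 0. Over the fits that leave out 1 library, the difference ran from −0.86 (without LOS 2) to −0.59 (without LOS 3) for miR-100, from −0.58 to −0.38 for miR-125b and from −0.50 to −0.36 for miR-99a-5p. Markers of mesenchyme, smooth muscle and fibroblasts moved the same way: 8 of 9 were lower in LOS kidneys, with a median of −0.29 and summed levels of 47865 to 53230 CPM against 49490 to 71206 CPM in controls. Their part in the result was not tested. The relatives miR-10a and miR-10b, the most abundant miRNAs of kidney, differed by −0.05 (SE 0.09) and 0.06 (SE 0.06).

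In skeletal muscle, each of the 5 guides again averaged lower in LOS fetuses, as did 52.8% of all 439 miRNAs, and the 3p strands were mostly higher. miR-125b was at 2637, 2225, 2216 and 2236 CPM in LOS 1 to 4 and at 3490, 3103, 3147 and 3853 CPM in control 1 to 4. The groups did not overlap, and 5.24% of the muscle miRNAs were lower in LOS without overlap; the difference was −0.55 (SE 0.10). miR-125a was at 2607, 2076, 2473 and 2376 CPM in LOS and 3294, 2635, 2941 and 2894 CPM in control fetuses, also without overlap (−0.30, SE 0.10). miR-100 was lower in LOS 2 to 4, at 3767, 3992 and 3018 CPM, while LOS 1, at 5648 CPM, lay among the controls of 4588 to 5664 CPM (−0.33, SE 0.17; −0.50 without LOS 1 and −0.20 without LOS 4). miR-99b was at 4700 to 7143 CPM in LOS and 6586 to 9111 CPM in control fetuses (−0.33, SE 0.16), and miR-99a-5p at 1280 to 1642 CPM and 1541 to 1997 CPM (−0.24, SE 0.11). LOS 1 was the highest LOS library for each of the 5 guides.

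The 3p strands of miR-125b went the other way in muscle. miR-125b-1-3p was at 85.0, 81.9, 158 and 117 CPM in LOS and at 91.2, 81.8, 76.7 and 76.9 CPM in control fetuses (0.43, SE 0.20), and miR-125b-2-3p was at 670, 606, 890 and 918 CPM and at 628, 651, 691 and 613 CPM (0.26, SE 0.14). LOS 3 and LOS 4 were the high libraries of both. Over the fits that leave out 1 library, the difference of miR-125b-1-3p ran from 0.21 (without LOS 3) to 0.56 (without LOS 1) and that of miR-125b-2-3p from 0.17 (without LOS 4) to 0.35 (without LOS 2). The ratio of miR-125b to its summed 3p strands was therefore 3.49, 3.23, 2.12 and 2.16 in LOS muscles against 4.85, 4.23, 4.10 and 5.58 in control muscles, without overlap. Its numerator was among the values by which the family was chosen, so this ratio carries no test. The guide to 3p ratios of miR-99a, miR-99b and miR-125a overlapped between LOS and control muscles. In kidney the ratio of miR-125b to its summed 3p strands was 4.72, 5.82, 3.48 and 3.45 in LOS and 5.88, 5.09, 6.10 and 6.53 in control fetuses, and LOS 3 and LOS 4 were again the lowest. Of the 5 listed 3p strands in muscle, 4 were above 0 and miR-99b-3p was below (−0.07), with a median of 0.13 beside a median of −0.33 for the guides and −0.01 over all 439 miRNAs. edgeR called 0 of the 439 (0%), and 58 were at an unadjusted p under 0.05. DESeq2 called 17 of the 439 and limma-voom 0. Skeletal muscle markers were lower in 7 of 9 cases (median −0.16, sums of 18385 to 21930 CPM in LOS and 19064 to 22131 CPM in controls), and both endothelial markers were higher (9374 to 12795 CPM against 8589 to 9573 CPM). Their part in these values was not tested.

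**Figure D3:**
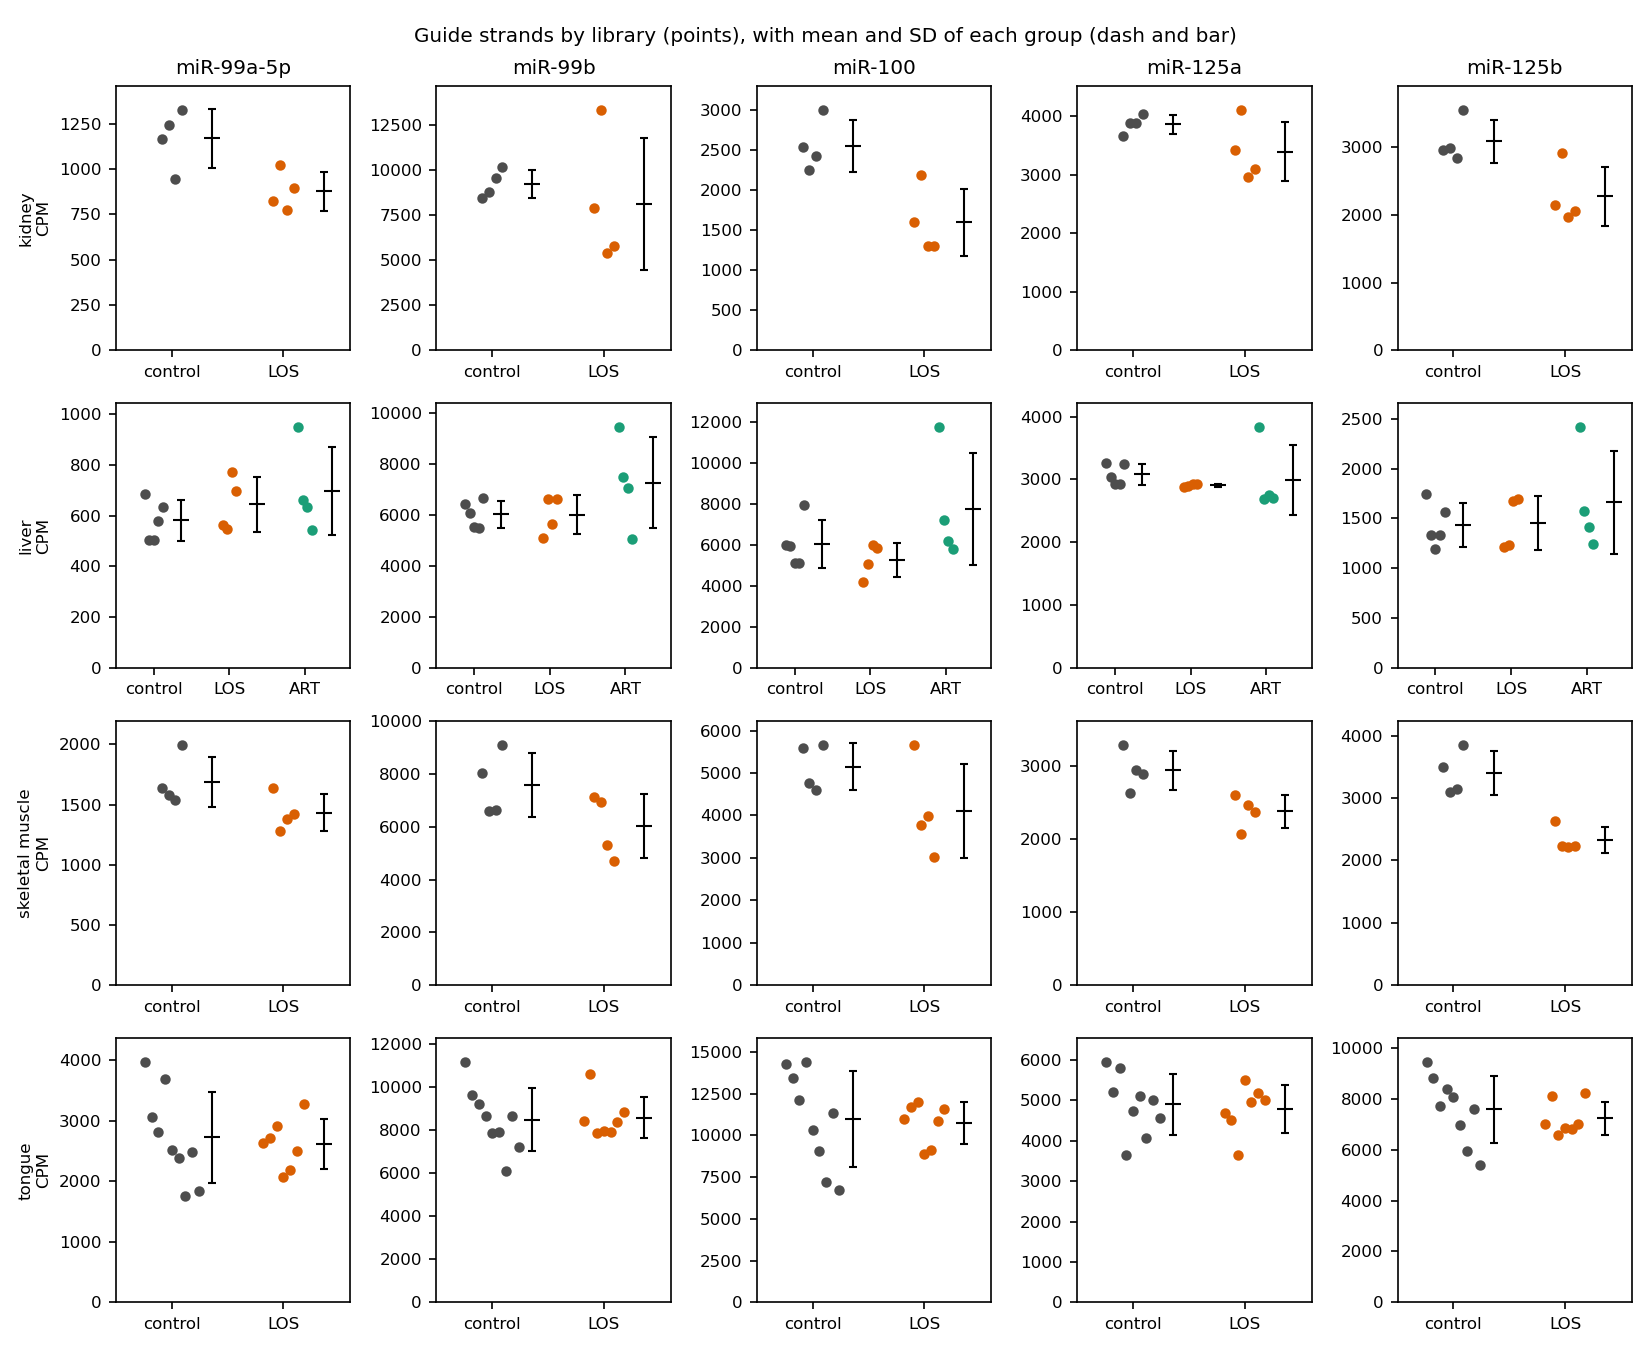
CPM of the 5 guide strands (columns) in each library of kidney, liver, skeletal muscle and tongue (rows), by group; the dash and bar beside each group are its mean and SD. LOS libraries lie below the controls for miR-100 in kidney (1300 to 2182 against 2248 to 2995 CPM) and for miR-125b in muscle (2216 to 2637 against 3103 to 3853 CPM), and overlap them in liver and tongue.

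In liver, which has healthy ART fetuses beside LOS and control fetuses, no member passed the test in any of the 3 comparisons. miR-100 was at 4186, 5046, 5970 and 5830 CPM in LOS 1 to 4, at 5996, 5963, 5138, 5124 and 7972 CPM in control 1 to 5 and at 11739, 7229, 6208 and 5780 CPM in ART 1 to 4. The 3 groups overlapped, with the single highest library in ART. Against controls, miR-100 differed by −0.20 (SE 0.20, adjusted p = 0.695) in LOS and by 0.36 (SE 0.20, adjusted p = 0.702) in ART fetuses. LOS against ART differed by −0.56 (SE 0.21, adjusted p = 0.213). Without ART 1 the ART difference of miR-100 fell to 0.08 and that between LOS and ART to −0.29. miR-125b was at 1208, 1231, 1679 and 1698 CPM in LOS, 1190 to 1749 CPM in control and 1242 to 2414 CPM in ART fetuses, with a LOS difference from controls of 0.02 (SE 0.19). miR-125a was held within 2883 to 2932 CPM in the 4 LOS livers, inside or just under the control range of 2927 to 3267 CPM (−0.08, SE 0.09).

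The other liver guides differed as little. For LOS against control the differences of miR-99b and miR-99a-5p were −0.01 (SE 0.14) and 0.15 (SE 0.16). For ART against control they were 0.27 (SE 0.14) and 0.26 (SE 0.16), and without ART 1 they were 0.11 and 0.07. edgeR called 0 of 11 members for LOS against control, where 7 of 563 miRNAs (1.24%) were called. No member had an unadjusted p under 0.05, whereas 79 of the 563 miRNAs did. It called 0 of 11 for ART against control, with 0 of 563 called (0%), 46 at an unadjusted p under 0.05 and 6 called by DESeq2. For LOS against ART it called 0 of 11, with 15 of 563 called (2.66%). An unadjusted p under 0.05 was found for 2 of the 11 members and for 87 of the 563 miRNAs. DESeq2 and limma-voom called no member in the 3 comparisons. The furthest 3p strand for LOS against control was miR-99a-3p, at 25.3 to 41.3 CPM in LOS and 20.8 to 30.5 CPM in control fetuses (0.34, SE 0.16, adjusted p = 0.362). For ART against control it was miR-125a-3p, at 5.98 to 9.05 CPM and 6.69 to 11.9 CPM (−0.37, SE 0.18, adjusted p = 0.631). Ratios of guide to 3p strands, compared for the 5 hairpin names in liver and tongue (20 exact permutation tests), had no adjusted p under 0.615, and that of miR-125b differed by −0.05 between LOS and control livers (p = 0.746) and by 0.18 between ART and control livers (p = 0.460). The LOS and ART comparisons share their 5 controls.

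In tongue, each of the 11 members differed between LOS and control fetuses by less than the SE of its difference. With sex in the fit, the differences ran from −0.07 to 0.02, with a lowest adjusted p of 0.915. edgeR called 0 of 11 members and 0 of 460 miRNAs (0%), with 25 of the 460 and no member at an unadjusted p under 0.05, and DESeq2 and limma-voom called 0. miR-100 had a lowest, median and highest value of 8899, 10988 and 12022 CPM in the 7 LOS tongues and of 6760, 11372 and 14391 CPM in the 9 control tongues (−0.01, SE 0.13). For miR-125b the values were 6581, 6985 and 8220 CPM in LOS and 5392, 7721 and 9431 CPM in control tongues (−0.06, SE 0.09). The LOS values of both fell inside the control range. In 1 fit over the 45 libraries, the LOS effect in tongue differed from that in liver for 0 of 10 members (3 of 374 miRNAs, 0.802%, were called). The difference of the LOS effect between tongue or liver and kidney or muscle was not tested, because the members were chosen with the kidney and muscle effects known.

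Among the tongues, 4 of the 5 guides had lower means in males by more than 1 SE and none passed the test. In the male tongues, relative to the female ones, miR-100 differed by −0.35 (SE 0.13, adjusted p = 0.313), miR-99a-5p by −0.32 (SE 0.14, adjusted p = 0.346), miR-99b by −0.20 (SE 0.09, adjusted p = 0.347) and miR-125b by −0.20 (SE 0.09, adjusted p = 0.347). miR-125a differed by −0.0042 (SE 0.10). edgeR called 0 of 460 miRNAs (0%), with 62 of them and 4 of the 11 members at an unadjusted p under 0.05, and DESeq2 and limma-voom called 0. The spread was in the controls: miR-100 was at 14252, 13443, 12104, 14391 and 10328 CPM in the 5 female and at 9079, 7212, 11372 and 6760 CPM in the 4 male control tongues, whereas it was at 8899 to 12022 CPM in the 4 female and 9104 to 11569 CPM in the 3 male LOS tongues. Within females the LOS difference of miR-100 was −0.24, and within males it was 0.28. The difference between these LOS effects was 0.53 (SE 0.23, adjusted p = 0.970) for miR-100, 0.64 (SE 0.24, adjusted p = 0.915) for miR-99a-5p and 0.43 (SE 0.16, adjusted p = 0.915) for miR-125b, and 0 of 460 miRNAs were called. Sex goes together with the range of fetus numbers, and the male numbers occur in no other tissue.

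**Figure D4:**
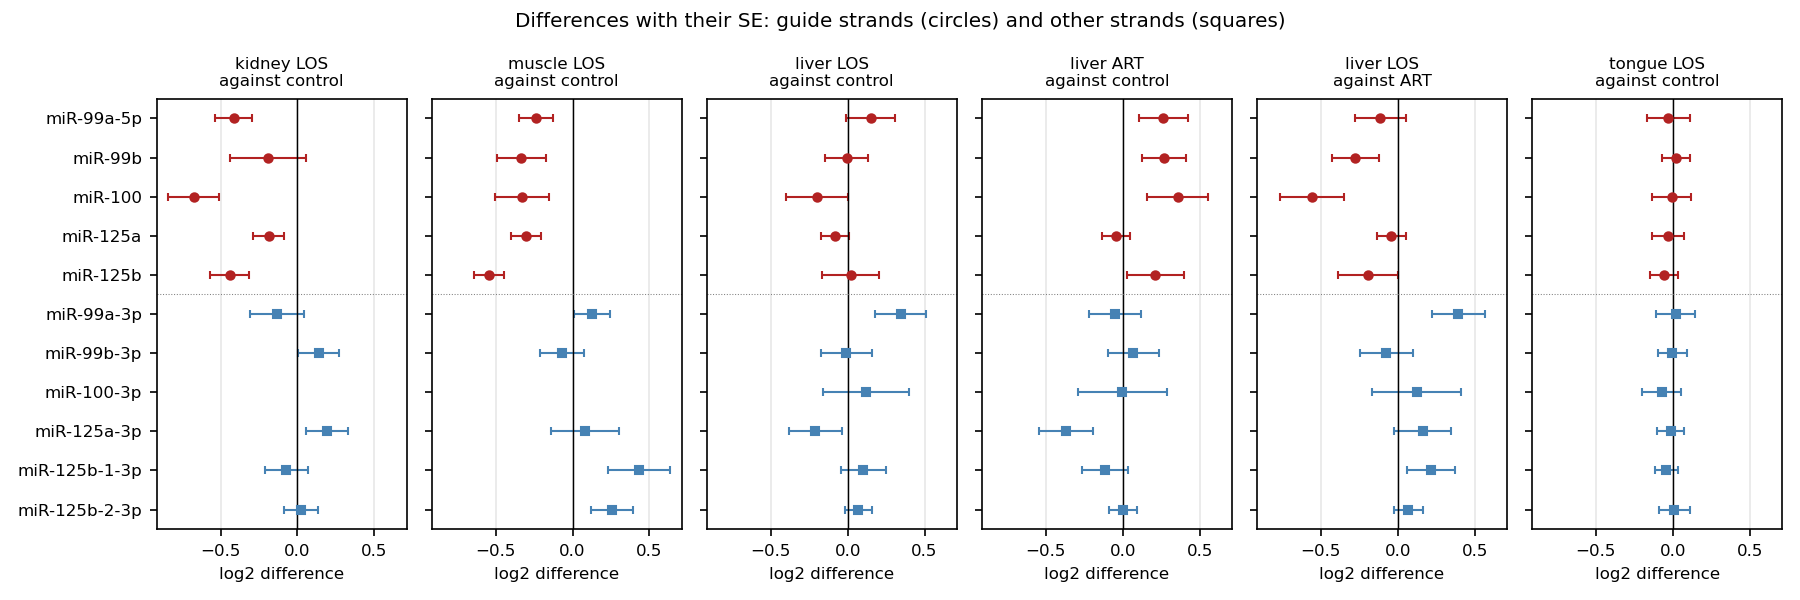
Log2 differences with their SE (edgeR) for the 5 guide strands (circles) and the 3p strands (squares) in 6 comparisons. All guides lie below 0 in LOS kidney (−0.68 to −0.19) and LOS muscle (−0.55 to −0.24), and all 11 members lie within −0.07 to 0.02 in LOS tongue.

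Of the let-7 partners of the 3 clusters, let-7a-5p passed the test in liver. In LOS livers it was higher than in controls (6804, 5557, 7399 and 6485 CPM against 4475 to 5006 CPM, 0.49, SE 0.07, adjusted p = 0.00243), with no overlap. The tables list the precursor of let-7a-5p as mixed, so its reads cannot be assigned to the cluster of miR-100, which differed by −0.20; the difference between these effects was not tested. Of the 9 mesenchymal markers all were higher in LOS livers (sums of 74898 to 88101 CPM against 59188 to 77613 CPM). All 3 hepatocyte, 5 white blood cell and 4 kidney and gut epithelium markers were lower. None of these markers was called, and their part in this was not tested. let-7c was also higher in mean (535, 487, 736 and 681 CPM against 303 to 515 CPM) but did not pass (0.65, SE 0.16, adjusted p = 0.0885), and it would have passed in DESeq2 (adjusted p = 0.00997). let-7e differed by 0.16 (SE 0.24, adjusted p = 0.793). In kidney and muscle, where the guides were lower, let-7a-5p differed by −0.05 (SE 0.09) and −0.18 (SE 0.08), and let-7c by −0.18 (SE 0.18) and −0.18 (SE 0.10).

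The libraries numbered LOS 2 stood apart in the miR-99b cluster in the 4 tissues. In LOS 2, let-7e was at 803 CPM in tongue, 703 in kidney, 443 in liver and 439 in muscle, the lowest LOS library each time, whereas the other LOS libraries were at 1427 to 1508, 1234 to 1535, 915 to 959 and 786 to 930 CPM. Its miR-99b was the highest LOS library in kidney (13314 CPM) and tongue (10615 CPM) but not in liver (6625 CPM) or muscle (6960 CPM). The count of miR-99b over that of let-7e in LOS 2 was 13.2 in tongue, 18.9 in kidney, 15.0 in liver and 15.9 in muscle. In the other LOS libraries this ratio was, in the same order, 5.23 to 5.91, 3.64 to 6.40, 5.29 to 7.25 and 5.72 to 9.08, and in controls it was 3.65 to 7.40, 5.17 to 8.18, 7.13 to 10.6 and 7.52 to 10.05. The healthy ART livers, which are other fetuses, had ratios of 14.7, 23.1, 19.1 and 7.70, and ART 2 and ART 3 had let-7e at 325 and 368 CPM. The ratio of miR-125a to let-7e was likewise highest in LOS 2 among the LOS libraries (5.62, 5.84, 6.55 and 4.73, against 2.01 to 3.78 in the others). Controls reached at most 3.94, 3.25, 5.14 and 3.73 in the same order, but the ART livers ran from 4.10 to 8.30. Among the LOS libraries, miR-99b over miR-125a was also highest in LOS 2 in each tissue. It was at 2.35, 3.24, 2.28 and 3.35, against at most 2.16, 2.31, 2.26 and 2.74 in the other LOS libraries. Controls reached 2.38, 2.52, 2.06 and 3.15, so a control tongue lay above LOS 2. The ART livers, at 1.88 to 2.78, also reached above it. These are observations on single fetuses and carry no test.

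**Figure D5:**
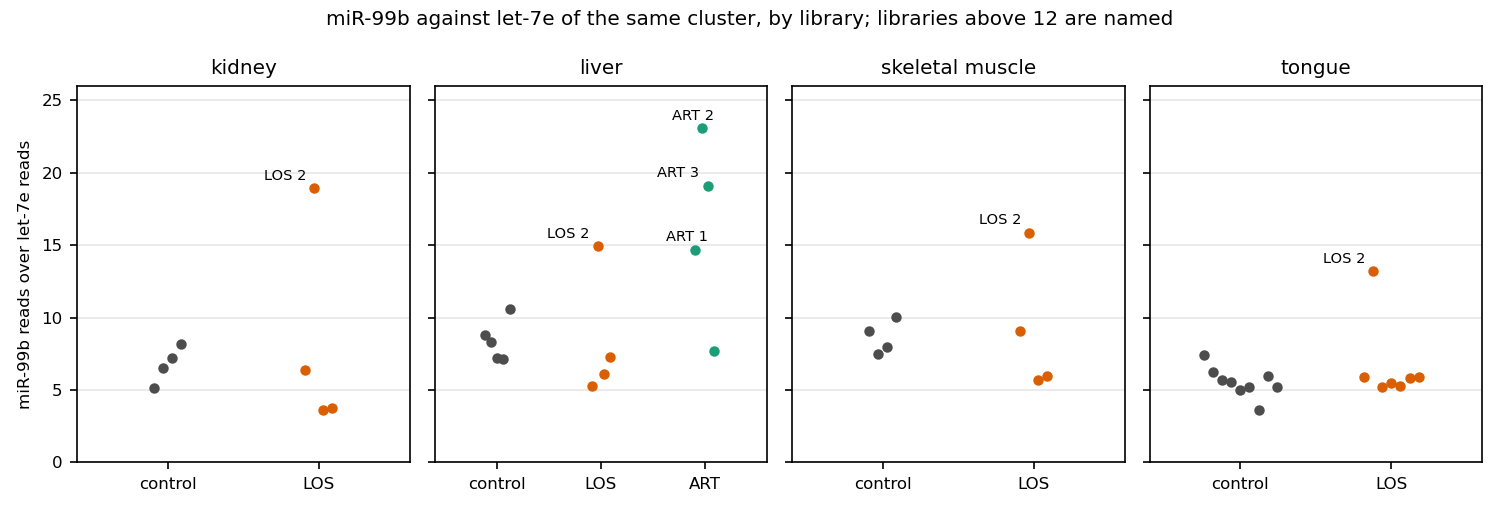
Ratio of miR-99b reads to let-7e reads in each library, by tissue and group, with libraries above 12 named. The libraries LOS 2 lie at 13.2 to 18.9 in the 4 tissues and ART 1 to 3 at 14.7 to 23.1 in liver, while the control libraries lie at 3.65 to 10.6.

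Across the 45 libraries, taken as deviations from the mean of their tissue and group, the guides varied more closely with one another than with their own 3p strands. Pearson's r was 0.87 between miR-100 and miR-125b, 0.87 between miR-99a-5p and miR-125b, 0.84 between miR-100 and miR-99a-5p, and 0.80 between miR-100 and miR-99b. miR-125a was less close (0.36 with miR-99a-5p to 0.59 with miR-125b). Between a guide and its own 3p strand r was 0.31 for miR-99a, 0.13 for miR-99b and 0.28 for miR-125a, and for miR-125b it was 0.23 with miR-125b-1-3p and −0.03 with miR-125b-2-3p. Some strands of the miR-99a cluster went together more closely than that: miR-99a-3p had r of 0.75 with miR-125b-2-3p and 0.71 with let-7c. Others did not: miR-125b-2-3p had r of 0.23 with let-7c and 0.14 with miR-99a-5p. Between let-7c and miR-99a-5p r was 0.50. let-7e had negative r with miR-99b (−0.50) and miR-99b-3p (−0.51) of its own cluster. Outside the family, the miRNAs closest to the guides by this measure were miR-1271 for miR-100 (0.80) and miR-125b (0.82), miR-409a for miR-99b (0.86), miR-151-5p for miR-125a (0.78) and miR-145-3p for miR-99a-5p (0.70), and miR-145 was closest to miR-125b-2-3p (0.81). By the tissue means of the controls (mean absolute log2 difference over the 4 tissues after centring), the closest to each guide were the miRNA listed as miR-temp26-5p to miR-99b (0.051), miR-199b to miR-125b (0.066), miR-130a to miR-125a (0.082), miR-3957-3p to miR-100 (0.13) and miR-181a-1-3p to miR-99a-5p (0.13). Of the 3p strands the closest match was miR-181b to miR-125a-3p (0.055). Libraries of 1 fetus and of 1 table are not independent points, so these values describe these libraries and have no p.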

How the data were processed

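The authors deposited 1 table per tissue with raw read counts per mature miRNA. For the 4 tissues Bowtie and UMD3.1 were named, and for tongue alone cutadapt 1.18, per the submitters' processing notes. Which tool counted the reads, and any filter, is not given in the sources used here. Listed counts began at 3 (liver), 6 (muscle), 8 (tongue) and 16 (kidney), so the totals are those of listed miRNAs. Per the labels' protocols, 2 µg of TRIzol RNA per sample went into the TruSeq small RNA kit, with fragments of 140 to 160 bp kept.

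From the counts, edgeR 4.0.16 (R 4.3.3) gave TMM factors (0.943 to 1.07 within tables), CPM and the quasi-likelihood test after filterByExpr, with Benjamini-Hochberg adjustment over all miRNAs of a fit and a call at an adjusted p under 0.05. The 3 liver groups shared 1 fit, tongue had a term for sex, and the control libraries of 4 tissues were fitted on 374 shared miRNAs. DESeq2 1.42.0, limma-voom (limma 3.58.1), other scalings and filters and left-out libraries were alternatives. The scripts were tested on simulated data. Replicates of a group differed from each other by far more than sampling noise (chi-square per degree of freedom of at least 23.9). Replicates are separate fetuses as the labels number them; nothing further is said of their source, and p-values measure the spread between them.

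The members and lists were chosen with earlier results of these data known. The rule named all members, their let-7 cluster partners, miR-10a and miR-10b, and the miRNAs closest to each member. Libraries of 1 number in 2 tissues were taken as 1 fetus, and their deviations from the group means had r from −0.082 to 0.38 in controls and from −0.43 to 0.61 in LOS fetuses. Marker lists for hepatocytes, skeletal muscle, epithelia, mesenchyme, endothelium, red cell precursors and white blood cells were fixed with the design; beyond those in the report, their summed levels overlapped between LOS and control fetuses in each tissue, and 0 of the listed markers were called in these comparisons.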

Additional observations from a re-analysis of the deposited data

Results flagged for a closer look

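Of 113 groups of 4 to 9 libraries examined, 9 held a library far from the others of its group; chance marks about 1 in 20. Among the members these were miR-125a in liver ART 1, at 3830 CPM beside 2693 to 2753 CPM in the other ART livers, miR-125b in muscle LOS 1, at 2637 CPM beside 2216 to 2236 CPM, and miR-99a-3p in kidney control 3, at 48.8 CPM beside 69.0 to 71.2 CPM. LOS 2 gave 2 more in tongue: miR-99b at 10615 CPM beside 7891 to 8860 CPM, and miR-99b-3p at 25.8 CPM beside 14.8 to 17.6 CPM. For let-7e, the partner of miR-99b, LOS 2 was far below the other LOS fetuses in liver (443 CPM beside 915 to 959 CPM) and tongue (803 CPM beside 1427 to 1508 CPM), and its ratio of miR-99b to let-7e reads in tongue, 13.2, was far above the others (5.23 to 5.91). Liver control 5 was low for let-7e, at 631 CPM beside 729 to 766 CPM.

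For miR-125a-3p every LOS kidney lay above the mean of the control kidneys and every LOS liver below that of the control livers. The log2 differences were 0.19 in kidney and −0.21 in liver, at levels of 6.69 to 13.6 CPM, and the difference between them was not tested.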

How the results depend on the processing

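Under settings that leave out no library, 1148 of 1192 recomputed values were rated as unchanged. For most differences this meant the same direction and side of the threshold. For differences in the kidney and muscle LOS comparisons it meant a shift smaller than the spread within groups, whatever the call. For counts of called members it meant an equal or similar count. The setting without a filter repeated the main fit, because every listed miRNA passed, so its values could not change. The family was chosen on the kidney and muscle comparisons of LOS and control fetuses, so the counts of called members there support nothing: in kidney 0 became 1 with DESeq2 and 0 to 2 over the fits without 1 library, and in muscle 0 became 1 with DESeq2, with RLE factors, with a mean CPM of at least 10 and without the 3 most abundant miRNAs. Between tissues, called members went from 9 to 10 in liver against kidney without the tongue table, from 10 to 9 in tongue against liver with DESeq2, with RLE factors and without scaling factors, from 7 to 6 in muscle against kidney and from 10 to 7 in muscle against liver without scaling factors, and from 5 to 6 in tongue against muscle without scaling factors and with the fetus block. Over the fits without 1 library they were 5 to 7 in muscle against kidney and in tongue against muscle. Without scaling factors the sign turned for miR-100 (−0.25), miR-125a (−0.087), miR-125a-3p (−0.12) and miR-99b-3p (−0.54) in muscle against liver, miR-125a (0.35) and miR-99a-3p (0.35) in tongue against kidney, miR-99b-3p (−0.33) in tongue against liver, miR-125a-3p (0.15), miR-99a-3p (0.18), miR-99b (0.15) and miR-99b-3p (0.21) in tongue against muscle, miR-99b (0.0073) in liver LOS against control and miR-100 (0.013) in tongue LOS against control. In tongue LOS against control the sign turned in males only for miR-100 (0.28), miR-125a (0.10), miR-125b (0.17) and miR-99a-5p (0.32), and in females only for miR-99b (−0.080). For miR-125a in male against female tongues it turned with DESeq2 (0.0013), limma-voom (0.010), RLE factors (0.0013) and without the 3 most abundant miRNAs (0.0026).

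Leaving out 1 library turned the sign of differences near 0. Their ranges were −0.011 to 0.18 for miR-99a-3p in muscle against kidney. In kidney LOS against control they were −0.29 to 0.028 for let-7e, −0.097 to 0.034 for let-7a-5p, −0.17 to 0.038 for miR-125b-1-3p and −0.035 to 0.085 for miR-125b-2-3p, and in muscle LOS against control −0.098 to 0.20 for miR-125a-3p. In liver ART against control they were −0.12 to 0.080 for let-7c, −0.19 to 0.0044 for miR-125a and −0.033 to 0.33 for miR-125b. In liver LOS against ART they were −0.095 to 0.094 for miR-125a, −0.31 to 0.037 for miR-125b and −0.22 to 0.063 for miR-99a-5p. In liver LOS against control they were −0.086 to 0.099 for miR-125b and −0.079 to 0.065 for miR-99b. In tongue LOS against control they were −0.069 to 0.059 for miR-100, −0.15 to 0.0021 for miR-100-3p, −0.077 to 0.032 for miR-125a, −0.14 to 0.046 for miR-99a-5p and −0.024 to 0.073 for miR-99b, and in male against female tongues −0.056 to 0.038 for miR-125a. The log2 ratio of miR-125b to its 3p strands ran from −0.017 to 0.32 for ART against control livers, from −0.17 to 0.0083 for LOS against control livers and from −0.13 to 0.0053 for LOS against control tongues. The ratio tests and the interaction fits were added after seeing the data. The cause of these changes was not tested.

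Within a tissue the replicate numbers of LOS and control fetuses name different animals, and same-numbered libraries did not deviate together (r from −0.35 to 0.27). With the replicate number as a block, 0 members were called in each LOS and ART comparison, miR-99b in liver LOS against control went to 0.025, and let-7a-5p in liver lost its call (adjusted p = 0.111 for LOS against control and 0.0956 for LOS against ART). In the tissue fits the fetus number as a block changed the call of miR-99a-5p in tongue against muscle and of no other member. The rarest member, miR-100-3p, lies near the lower end of the liver table, where precision is lowest.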
